A study of Mus musculus with 18 samples.

Results

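The mouse mitochondrial genome is a small circular DNA that encodes 2 ribosomal RNAs, a set of transfer RNAs and core subunits of the respiratory chain. The 36 RNAs described here are every gene in the deposited table whose name starts with mt-, out of 38046 genes after transcripts were summed by gene name. They comprise 12 mRNAs, 2 rRNAs and 22 tRNAs, and 36 of 36 reached the mean of 1 TPM (a length-corrected share of all transcripts) required for testing. One further mRNA of the mouse mitochondrial annotation, mt-Nd4l, was not analysed here.

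RNA was sequenced from clonal lines of mouse oligodendrocyte progenitor cells (OPCs), derived from primary neural stem cells. OPCs are dividing precursors of the oligodendrocytes that wrap axons in myelin. The 3 control clones (D7, D3 and E8) and the 3 clones null for Thap1 (3F, D6 and 7F) gave 1 library each at 3 stages, and hence 6 groups of 3 libraries. The OPC stage is day 0 in growth medium with PDGF-AA, and DIV2 and DIV4 are days 2 and 4 in differentiation medium with thyroid hormone T3 at 40 µg/ml. How the null clones were made, and from how many animals the clones came, is not given in the sources used here, so p-values measure the spread between clones. Each clone is a single line. Per the labels' protocols, total RNA was depleted of rRNA and turned into strand-specific libraries. THAP1, the protein missing in the null clones, is a zinc-finger transcription factor of the nucleus.

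Mitochondrial DNA is read from both strands as long precursor transcripts by a single-subunit RNA polymerase, POLRMT, with the help of TFAM. In many places tRNAs lie between the other genes, and their excision releases the mRNAs and rRNAs. The 12S and 16S rRNAs (mt-Rnr1 and mt-Rnr2) form the core of the mitochondrial ribosome, which translates the mRNAs into subunits of complexes I, III, IV and V. Levels of the mature RNAs depend on processing, polyadenylation and decay as well as on transcription, and the LRPPRC-SLIRP complex is known to stabilise many of the mRNAs.

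The 5 tRNAs with the highest mean level are each read from the minus strand of the annotation. Their sequences are shown because nearly all of the tRNA signal below comes from them. They are DNA-sense sequences of the annotated genes (GENCODE M21, GRCm38), 5′ to 3′, with the anticodon in capitals.
mt-Ts1 (serine, chrM:6870-6938, minus strand): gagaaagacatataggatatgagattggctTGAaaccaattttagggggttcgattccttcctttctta
mt-Tp (proline, chrM:15356-15422, minus strand): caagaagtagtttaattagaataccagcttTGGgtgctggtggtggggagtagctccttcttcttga
mt-Tc (cysteine, chrM:5192-5257, minus strand): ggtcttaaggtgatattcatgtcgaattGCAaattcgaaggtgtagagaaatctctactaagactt
mt-Tn (asparagine, chrM:5089-5159, minus strand): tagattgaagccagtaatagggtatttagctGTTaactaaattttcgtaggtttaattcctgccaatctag
mt-Ty (tyrosine, chrM:5260-5326, minus strand): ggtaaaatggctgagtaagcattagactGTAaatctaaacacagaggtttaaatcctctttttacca

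Neighbouring genes overlap, which sets what the values can separate. The mt-Atp8 and mt-Atp6 reading frames, both on the plus strand, share 43 bases at chrM:7927-7969, shown in capitals in the end of the first and the start of the second. The 3′ end of mt-Co1 on the plus strand shares 3 bases with mt-Ts1 on the minus strand, also in capitals. mt-Nd5 and mt-Nd6 overlap by 14 bases on opposite strands.
mt-Atp8, last 63 bases (chrM:7907-7969): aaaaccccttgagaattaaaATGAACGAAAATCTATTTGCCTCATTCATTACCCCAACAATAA
mt-Atp6, first 63 bases (chrM:7927-7989): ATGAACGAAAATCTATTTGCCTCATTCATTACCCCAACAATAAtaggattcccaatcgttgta
mt-Co1, last 40 bases (chrM:6833-6872): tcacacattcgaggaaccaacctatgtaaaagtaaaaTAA

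Many of the mRNAs also have nuclear copies. The share of a gene's 31-base words found in transcripts of nuclear genes was 100% for mt-Co2, 99.9% for mt-Co3, 99.5% for mt-Atp6, 98.1% for mt-Nd3, 63.9% for mt-Co1 and 62.8% for mt-Nd4. It was 16.8% for mt-Nd5, 13.5% for mt-Nd2 and 10.8% for mt-Ty. These 9 are uncertain, because reads could have been split with those nuclear transcripts. For mt-Co2, mt-Co3, mt-Atp6, mt-Nd3 and mt-Nd4, the nuclear gene sharing the most words had no values in the deposited table. For mt-Co1 it was Gm13340, with 0.0825 to 3.39 deposited TPM. For mt-Nd5 and mt-Nd2, Gm4076 and Gm13339 had at most 0.359 and 0.277 TPM. How reads were assigned was not tested. mt-Nd1, mt-Atp8, mt-Nd6, mt-Cytb and both rRNAs shared under 10%.

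Values are given on a pair of scales. Deposited TPM sums to 1000000 per library. Rescaled TPM is the deposited value divided by a median-of-ratios factor taken over 14689 genes above 0 in every library. The scales differ at the OPC stage. Some nuclear features, such as mmu-mir-6236, Gm15662 and Gm26924, often collect ribosomal reads in mouse data, and 8 of them are called rRNA-like here. They held 66.1% to 90.3% of each control OPC library's TPM and 35.8% of that of null D6 OPCs, but no more than 3.39% of any of the 14 remaining libraries. Nuclear protein-coding RNAs held 4.96% to 8.47% in control OPCs and 17.4% to 36.3% elsewhere. The rescaling factors were 0.135 to 0.312 in control OPCs and 0.708 to 1.41 in null OPCs. Every control OPC library carried this load, so genotype and load cannot be told apart at that stage.

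Markers of the labelled cell type were present at each stage. Rescaled sums over 7 OPC markers were 580.2 to 846.4 in control OPCs and 420.3 to 541.2 in null OPCs. Sums over 10 oligodendrocyte markers went from 113.5 to 798.9 in control OPCs to 3882 to 7145 at DIV2, and from 330.2 to 520.2 in null OPCs to 3419 to 3980. Astrocyte markers were variable at DIV4, with sums of 14.3 to 498.3 in control and 196 to 297.7 in null, and their part in the results below was not tested. Sums over 8 neuron markers were 69.2 to 145.1 across the 18 libraries, and their part was not tested either. Microglial and mesenchymal marker sums stayed at or below 4.83 and 1.83. The coding transcripts of Thap1 itself had 1.98 to 4.47 rescaled TPM over the 9 control libraries and 0.201 to 0.793 over the 9 null libraries, without overlap. With noncoding transcripts included, Thap1 was 0.77 higher in null OPCs after rescaling, and that value was called.

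Mitochondrial RNA as a whole took 2.51% to 5.51% of the deposited TPM in the 18 libraries, but its make-up differed. In control OPCs the rRNAs dominated: they held 2.81% ± 0.720 of the TPM (SD, n = 3), while the mRNAs held 0.308% ± 0.217. In null OPCs the rRNAs held 1.22% ± 0.746 and the mRNAs 2.15% ± 0.528. The ratio of rRNA to mRNA TPM was 9.78, 3.84 and 36.4 in control D7, D3 and E8 OPCs, and between 0.310 and 1.28 in the other 15 libraries. The mRNA share at DIV2 was 2.15% ± 0.307 in control clones, with 2.16% ± 0.154 in null clones. The DIV4 shares were 1.98% ± 0.656 for control and 1.61% ± 0.115 for null. tRNAs held 0.109% ± 0.101 in control OPCs, 0.730% ± 0.219 in null OPCs and 0.327% to 1.15% at DIV2 and DIV4.

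**Figure D1:**
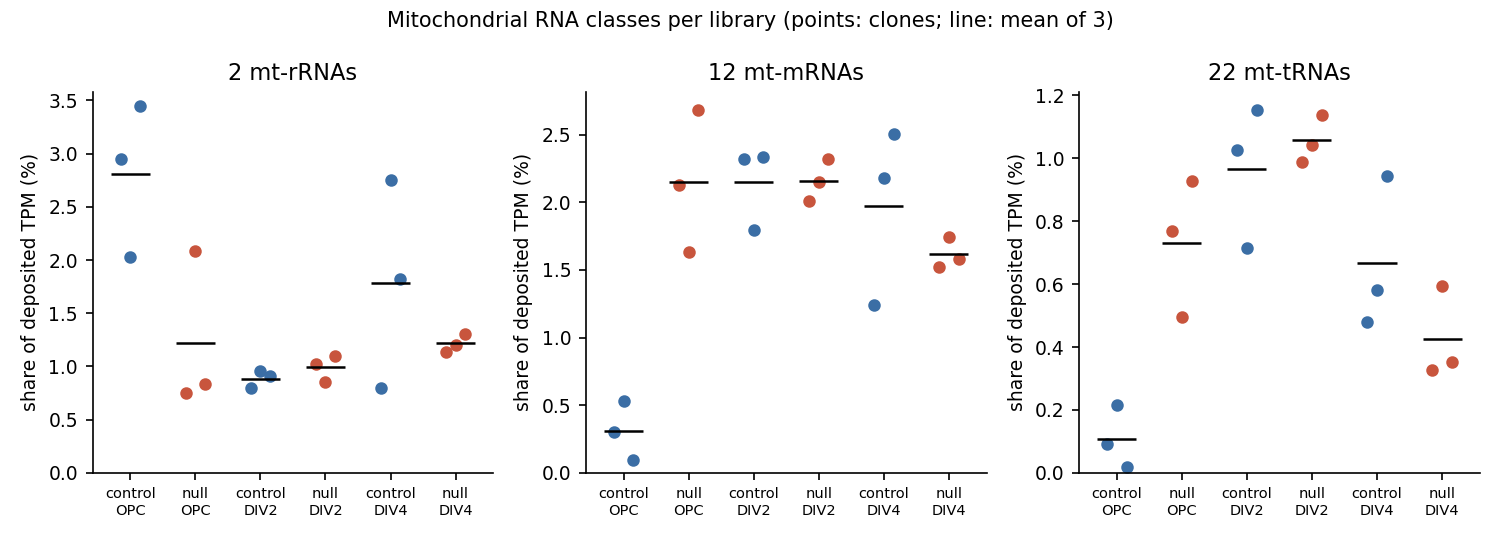
Share of deposited TPM (%) held by the 2 mt-rRNAs, 12 mt-mRNAs and 22 mt-tRNAs in each library; blue points are control clones, red points null clones, and lines are means of 3. The control OPC libraries lie lowest for mRNAs (0.0946% to 0.528%) and tRNAs, and the 4 highest rRNA shares include 2 of them.

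The 12S rRNA, mt-Rnr1 (ENSMUSG00000064337, chrM:70-1024, plus strand), was highest in the control OPC libraries. Its deposited TPM was 16314 in control D7, 9617 in D3 and 19670 in E8 OPCs. Among null OPCs it was 1471 in 3F, 8982 in D6 and 1160 in 7F. Across DIV2 and DIV4 it ranged from 1044 in control D7 at DIV2 to 5308 in control D3 at DIV4. The control OPC values were therefore the 3 highest of 18, and null D6 OPC, which carried the load of rRNA-like features, was the fourth.

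The 16S rRNA, mt-Rnr2 (ENSMUSG00000064339, chrM:1094-2675, plus strand), differed less on the deposited scale. In OPCs its TPM was 13186 for control clone D7, 10636 for D3 and 14776 for E8, and 6020 for null clone 3F, 11826 for D6 and 7176 for 7F. The groups overlapped, since null D6 lay above control D3. Values as high occurred after differentiation too, with 22215 in control D3 and 15480 in control E8 at DIV4.

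The ratio of 12S to 16S needs no scaling between libraries. It was 1.24, 0.904 and 1.33 in control D7, D3 and E8 OPCs and 0.760 in null D6 OPCs. In the other 14 libraries it lay between 0.151 and 0.258. Among those 14, the 6 DIV2 libraries had 0.151 to 0.192. The 4 libraries with ratios above 0.7 were the 4 in which the rRNA-like nuclear features exceeded 35% of TPM. Both rRNAs come from the same precursor and lie next to each other, with mt-Tv between them. Whether the mitochondrial rRNA of these libraries reflects the removal step or the cells was not tested.

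**Figure D2:**
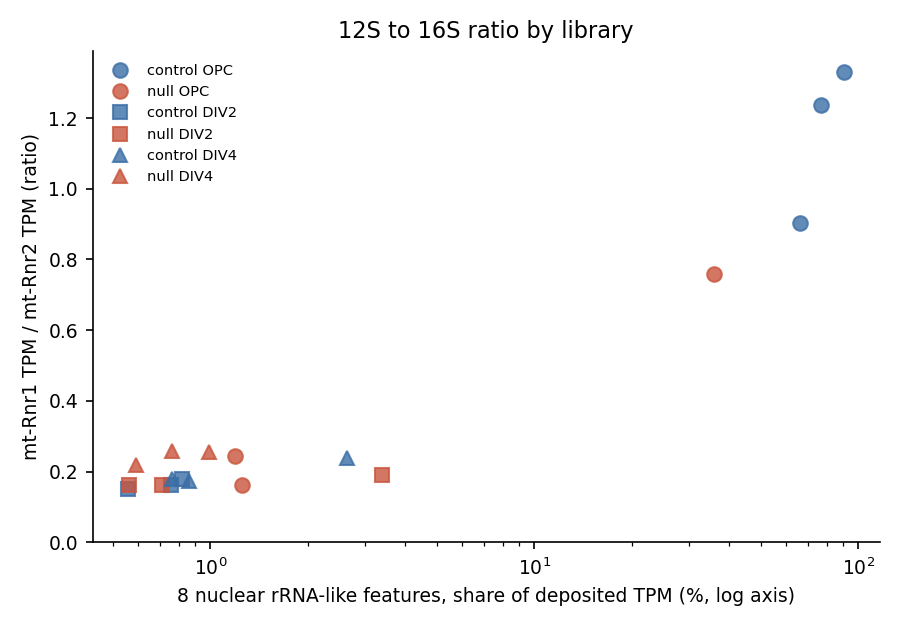
Ratio of mt-Rnr1 to mt-Rnr2 TPM against the share of deposited TPM in the 8 rRNA-like nuclear features (%, log axis), 1 point per library; colour is genotype and shape is stage. The 3 control OPC libraries and null D6 OPC sit at ratios of 0.760 to 1.33, and the other 14 at 0.151 to 0.258.

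On the rescaled values both rRNAs were lower in null than in control OPCs. mt-Rnr1 differed by -4.66 on the log2(rescaled TPM + 1) scale (SE 0.75, limma adjusted p = 0.00179) and mt-Rnr2 by -2.79 (adjusted p = 0.00213). On the deposited scale the differences were -2.55 (adjusted p = 0.00172) and -0.67 (adjusted p = 0.148). Without the null D6 OPC library mt-Rnr1 differed by -5.84 (rescaled, adjusted p = 1.18e-05). In a fit on only the 6 OPC libraries neither rRNA was called, with adjusted p = 0.182 for mt-Rnr1.

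From OPC to DIV2 both rRNAs fell in control clones, with changes of -6.24 for mt-Rnr1 (SE 0.75, limma adjusted p = 6.24e-05) and -3.44 for mt-Rnr2 (adjusted p = 0.000126) on the rescaled log2 scale. In null clones mt-Rnr1 differed by -1.19 (adjusted p = 0.273) and mt-Rnr2 by -0.33 (adjusted p = 0.650). The test of the difference between genotypes gave 5.05 for mt-Rnr1 and 3.11 for mt-Rnr2, each with adjusted p = 0.0660, and it did not pass the threshold. Without the null D6 OPC library both passed it. At DIV2 and DIV4 neither rRNA differed between genotypes in the test. The size of the fall from OPC to DIV2 in control clones depended on the scaling. Mean deposited TPM went from 15200 to 1254 for mt-Rnr1 and from 12866 to 7592 for mt-Rnr2. Scaled to nuclear coding TPM, the changes were -5.57 and -2.77 (limma adjusted p = 2.30e-05 and 0.000130).

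The 12 mRNAs spanned about 2 orders of magnitude in deposited TPM, and their order was stable. mt-Co1, the catalytic subunit of cytochrome c oxidase (complex IV), was highest in 18 of 18 libraries, with a mean of 6187 TPM. mt-Co3, another subunit of complex IV, was second in 18 of 18, with a mean of 3740. The lowest was mt-Nd5 (mean 61.8 TPM) in 13 libraries and mt-Nd6 (mean 69.3 TPM) in 5. Both encode subunits of complex I, the NADH dehydrogenase that feeds electrons into the chain.

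The mRNAs with the highest levels lay together on the genome. The 6 mRNA genes that follow each other from mt-Co1 to mt-Nd3 (chrM:5328-9806) encode the complex IV subunits, the ATP synthase (complex V) subunits mt-Atp8 and mt-Atp6, and mt-Nd3, and they had means of 1186 to 6187 TPM. The other 6, mt-Nd1, mt-Nd2, mt-Nd4, mt-Nd5, mt-Nd6 and mt-Cytb, had means of 61.8 to 507.9 TPM. In 18 of 18 libraries every member of the first set was above every member of the second. The sets were drawn with these values known, so this count describes them and is no test. Among the first set are 5 of the 6 mRNAs that share the most 31-base words with nuclear copies. The remaining member of that set, mt-Atp8, shares 7.5% of its words and had a mean of 1186 TPM.

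mt-Nd6 is the only mRNA of the 12 on the minus strand. It held 0.234% to 0.695% of mt-mRNA TPM.

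**Figure D3:**
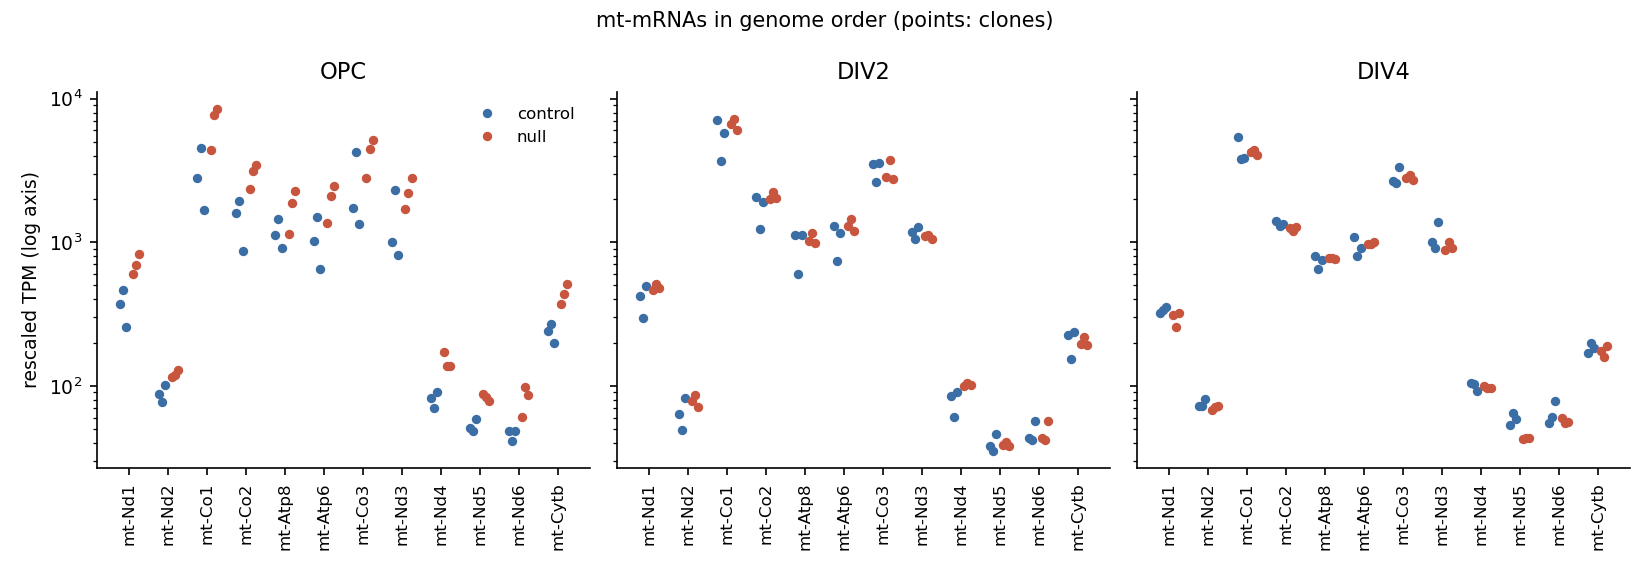
Rescaled TPM (log axis) of the 12 mt-mRNAs in genome order at each stage, 1 point per clone; blue is control and red is null. The set from mt-Co1 to mt-Nd3 lies above the others at each stage, and the genotypes are apart at the OPC stage for 7 of the 12.

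Within the mRNAs, the shares of complexes IV and V differed between OPCs and differentiated cells. Complex IV mRNAs held 55.3% to 66.4% of mt-mRNA TPM in the 6 OPC libraries and 71.2% to 73.9% in the 6 DIV2 libraries. Complex V mRNAs held 16.5% to 22.2% and 12.7% to 14.6%. The OPC and DIV2 ranges did not overlap for either complex. Complex I mRNAs held 14.5% to 19.7% and 10.6% to 14.5%, ranges that overlapped by a narrow margin. mt-Cytb, the 1 mitochondrial mRNA for complex III, held 1.58% to 2.82% of the mt-mRNA in OPCs and 1.22% to 1.50% at DIV2. At DIV4 complex IV mRNAs held 68.6% to 72.1% and complex V mRNAs 13.3% to 15.3%, again without overlap with OPCs. Complex I mRNAs held 12.3% to 16.5% and mt-Cytb 1.29% to 1.84% at DIV4, and both overlapped the OPC range. These shares do not depend on scaling between libraries, and they carry no test. The load of rRNA-like features differed between the stages too, and its part in these shares was not tested.

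Of the 12 mRNAs, mt-Co1 had the largest difference in share. It held 25.9% ± 1.92 of mt-mRNA TPM in control OPCs and 31.4% ± 2.25 in null OPCs (SD, n = 3), against 37.5% ± 3.44 and 40.9% ± 1.04 at DIV2. mt-Atp8 went the other way, from 10.9% ± 2.19 and 8.11% ± 0.516 to 6.44% ± 0.719 and 6.50% ± 0.126.

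**Figure D4:**
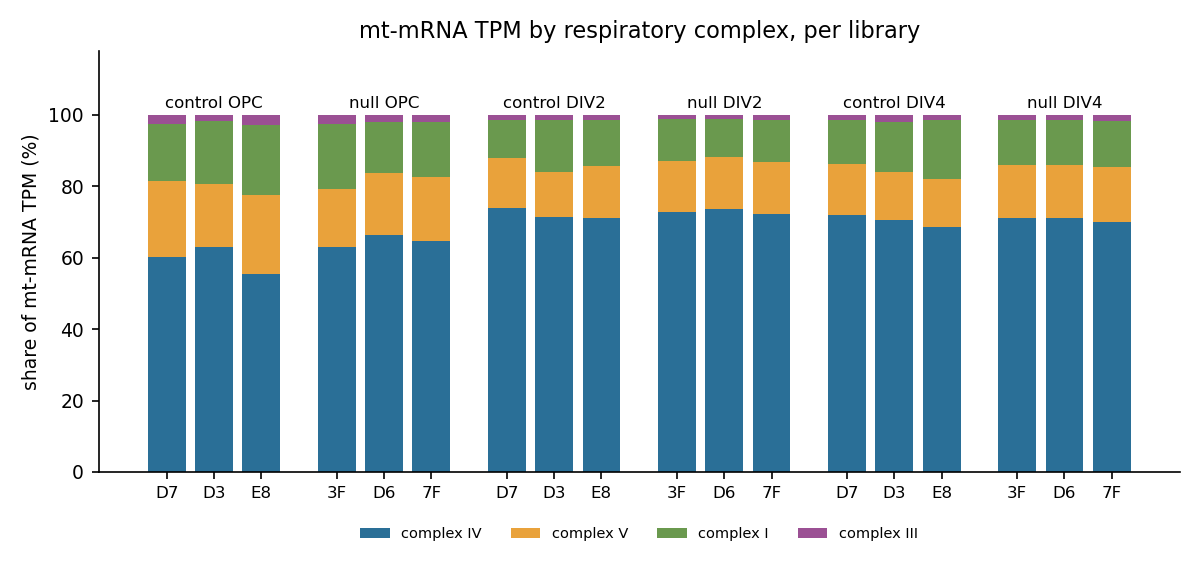
Share of mt-mRNA TPM (%) by respiratory complex in each library, stacked to 100%, with clones grouped by genotype and stage. Complex IV takes 55.3% to 66.4% in OPC libraries and 71.2% to 73.9% at DIV2.

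At the OPC stage 7 of the 12 mt-mRNAs were higher in null clones after rescaling. Of the 36 members, 10 were called between genotypes after rescaling (adjusted p under 0.05), against 10.7% of all genes tested. The 7 mRNAs and 1 tRNA called higher compare with 5.72% of all genes called higher, and the 2 rRNAs called lower with 4.94%. The groups did not overlap for 11 of the 36, where 24% of all genes did not overlap. The median difference of the 12 mRNAs was 0.88 on the log2(rescaled TPM + 1) scale, beside 0.07 for all 12894 genes. The 12 differences ran from 0.45 (mt-Nd2) to 1.25 (mt-Co1). The sign was positive for 12 of 12 on the rescaled and deposited values and on values scaled to nuclear coding TPM, and for 11 of 12 after quantile normalization.

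mt-Nd4, a complex I subunit, had the smallest adjusted p of the mRNAs. Its rescaled TPM was 82.0, 69.8 and 91.1 in control D7, D3 and E8 OPCs and 173, 137 and 137 in null 3F, D6 and 7F OPCs. The groups did not overlap, and the difference was 0.87 (SE 0.15, limma adjusted p = 0.00298). It was not called after quantile normalization (0.50, adjusted p = 0.119) or in a fit on only the 6 OPC libraries (adjusted p = 0.0834).

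mt-Cytb, the cytochrome b subunit of complex III and one of the members with few shared words, had 243, 268 and 198 rescaled TPM in control D7, D3 and E8 and 370, 436 and 513 in null 3F, D6 and 7F. These groups did not overlap either, and the difference was 0.89 (SE 0.18, limma adjusted p = 0.00690). mt-Nd5 had 50.7, 48.4 and 58.6 in control and 87.8, 84.0 and 78.1 in null, with a difference of 0.66 (adjusted p = 0.00381).

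mt-Nd1 (0.99), mt-Nd6 (0.79), mt-Co2 (1.08) and mt-Co1 (1.25) were the other mRNAs called higher, with limma adjusted p of 0.0119, 0.0169, 0.0234 and 0.0395. mt-Co1 overlapped between genotypes: control D7, D3 and E8 had 2782, 4505 and 1666 rescaled TPM, and null 3F, D6 and 7F had 4376, 7676 and 8455. The 5 mRNAs not called, mt-Nd2, mt-Atp8, mt-Atp6, mt-Co3 and mt-Nd3, had differences of 0.45 to 0.93. For mt-Co3 the control clones ranged from 1345 in E8 to 4229 in D3, which overlapped the null range of 2794 to 5190.

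Control D3 had the lowest load of rRNA-like features of the 3 control OPC libraries and the highest rescaled values of the 6 mRNAs from mt-Co1 to mt-Nd3. Summed over the 12 mRNAs, rescaled TPM was 10150 in control D7, 16920 in D3 and 7013 in E8, and 15125, 23042 and 26427 in null 3F, D6 and 7F. The groups overlapped on that sum. As a share of all protein-coding TPM, mt-mRNA took 3.55%, 5.87% and 1.87% in control D7, D3 and E8 and 7.50%, 8.56% and 10.6% in null 3F, D6 and 7F, without overlap. Without control clone D3, 16 members were called between genotypes, without null clone D6 6 were, and without null clone 7F 4 were. In a fit on the 6 OPC libraries alone 1 was called, mt-Ts2, a tRNA listed at 0 in each control OPC library.

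On the deposited values 30 members were called at the OPC stage, where 81% of all genes were called and the median of all genes was 1.50. The 12 mRNAs were all among them, with a median difference of 2.96. Scaling to nuclear coding TPM, with a median of 0.53 over all genes, gave 17 calls (29.1% of all genes), again with all 12 mRNAs higher (median 1.36). Relative to the median of all genes, the median of the mRNAs was 0.81 higher on the rescaled, 0.83 on the coding and 1.45 on the deposited scale. After quantile normalization it was 0.39 higher, with 4 members (12.3% of all genes) and 2 of the 12 mRNAs called. The rescaled, coding and deposited scales differ by a divisor per library, which by itself moves every gene alike in log2. Their unequal gaps follow from the 1 added before the log2, which shrinks the changes of low genes.

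**Figure D5:**
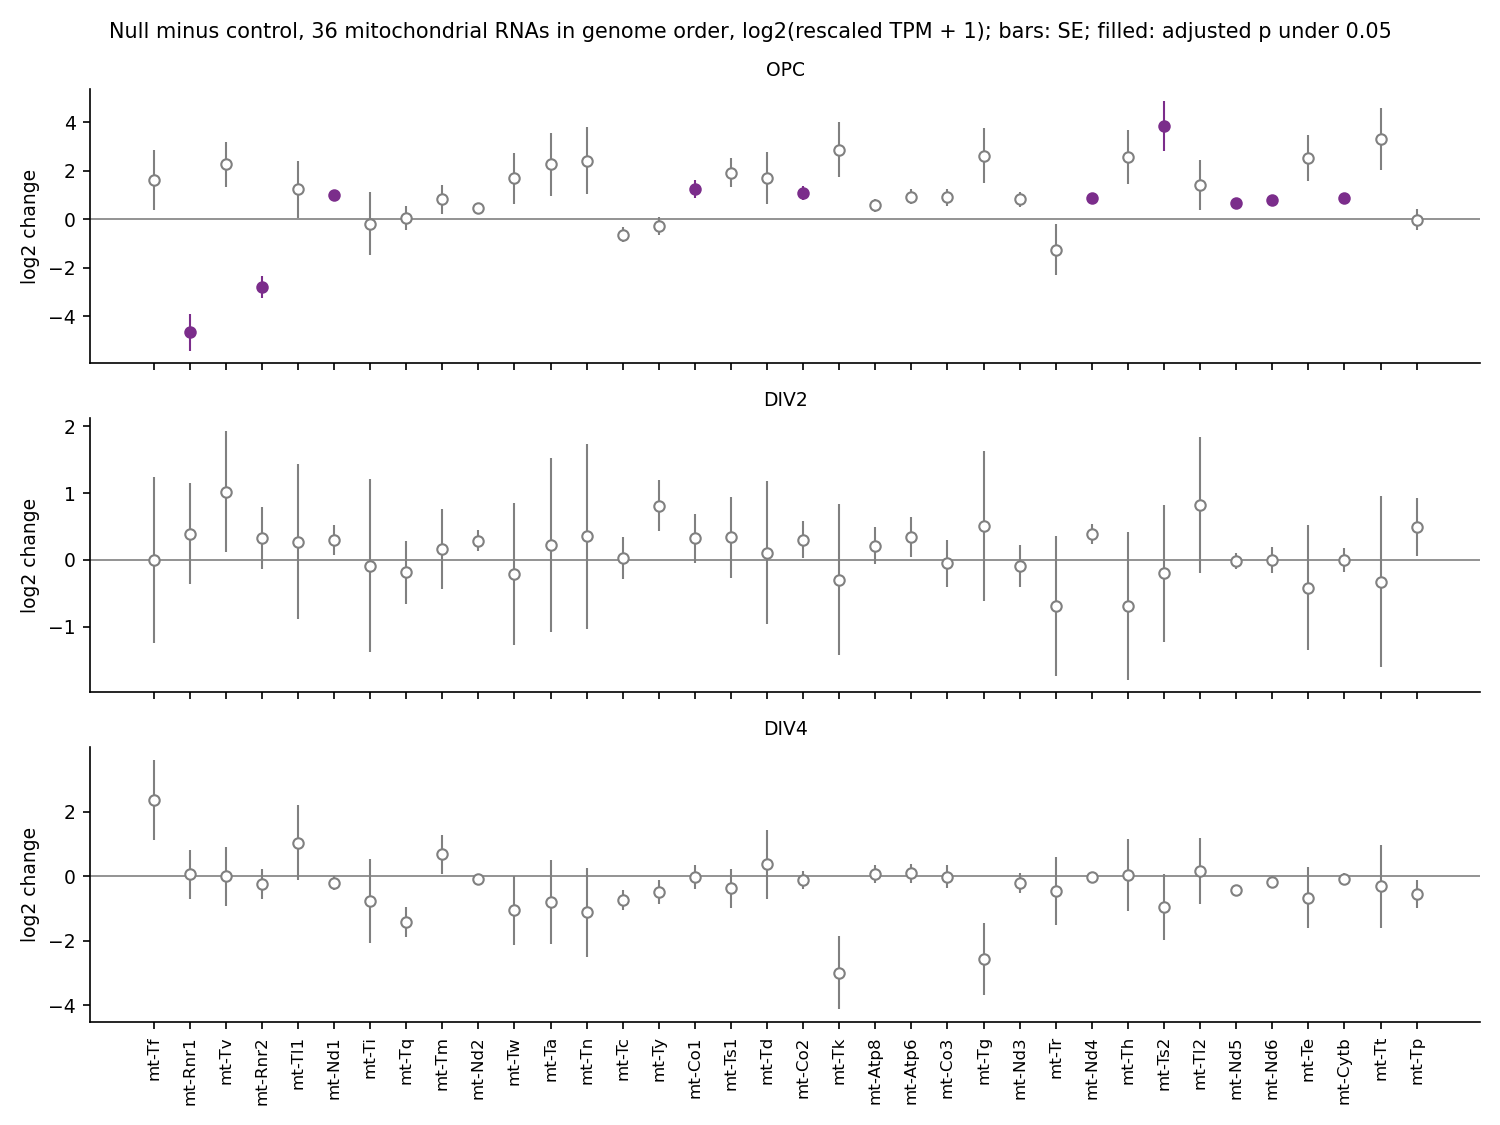
Difference between null and control (log2 of rescaled TPM + 1) of the 36 mitochondrial RNAs at each stage in genome order, with SE bars; filled points have an adjusted p under 0.05. At the OPC stage both rRNAs lie far below 0 and the 12 mRNAs between 0.45 and 1.25; no point is filled at DIV2 or DIV4. The axes differ between stages.

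At DIV2 and DIV4 no member was called between genotypes. limma called 2.69% of all genes at DIV2 and 4.54% at DIV4. At an unadjusted p under 0.05 there were 2 members at DIV2 and 5 at DIV4. The median difference of the mRNAs was 0.25 at DIV2 (range -0.09 to 0.39) and -0.09 at DIV4, where the median of all genes was 0.00 at both. The rescaled sum over the 12 mRNAs at DIV2 was 14499 ± 3471 for control clones and 16275 ± 1436 for null clones. At DIV4 it was 12150 ± 1169 for control clones and 11723 ± 219 for null clones (SD, n = 3). The genotypes overlapped at both stages.

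mt-Nd5 came closest to a call at DIV4. It had 53.2, 64.6 and 58.5 rescaled TPM in control D7, D3 and E8 and 42.7, 43.2 and 43.0 in null 3F, D6 and 7F. The null clones lay within 1 TPM of each other and below each control clone. The difference was -0.44 (SE 0.12, limma adjusted p = 0.0513), and it passed the threshold with the clone as a block, with a pseudocount of 0.1 and without control clone D7. Scaled to nuclear coding TPM, it was -0.36 (limma adjusted p = 0.274) and was not called. On the deposited scale the genotypes overlapped, with 50.3 TPM in control D7 and 55.4 to 63.0 TPM in the null clones.

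From DIV2 to DIV4 mt-Nd4 was not called in either genotype (limma adjusted p = 0.415 in control and 0.886 in null). Its rescaled level was higher at DIV4 in each of the 3 control clones (85.1 to 104 rescaled TPM in D7, 60.7 to 103 in D3 and 90.5 to 92.5 in E8) and lower in each of the 3 null clones (99.97 to 99.4 in 3F, 105 to 95.9 in D6 and 101 to 96.1 in 7F). The difference in null clones changed sign with the scaling, from -0.07 rescaled to 0.13 with coding scaling and 0.24 after quantile normalization. The test of the difference between genotypes gave -0.42 (SE 0.22, limma adjusted p = 0.940) and did not pass the threshold.

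From OPC to DIV2 in null clones, 6 of the 12 mRNAs fell and 6 did not pass the test after rescaling. Of the 36 members, 10 were called, a share close to the 26.5% of all genes that were called. mt-Nd2, mt-Nd3, mt-Nd4, mt-Nd5, mt-Nd6, mt-Cytb and 3 tRNAs fell, where 12.1% of all genes fell, and mt-Tp rose, where 14.4% did. mt-Nd5 fell from 87.8, 84.0 and 78.1 rescaled TPM in 3F, D6 and 7F to 38.8, 40.8 and 38.1, a change of -1.07 (SE 0.12, limma adjusted p = 4.03e-05). mt-Cytb fell from 370, 436 and 513 to 196, 219 and 193, a change of -1.10 (adjusted p = 0.000595). The stages did not overlap for either. Of the 6 mRNAs that fell, 5 encode complex I subunits, as do 6 of all 12 mRNAs, and 0 of the 3 complex IV mRNAs were called. The complex IV mRNA mt-Co2 did not overlap between the stages either, with 2347 to 3468 rescaled TPM in OPCs and 2012 to 2221 at DIV2.

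These calls depended on scaling and on the clones. On the deposited values 0 of the 12 mRNAs were called in null clones between OPC and DIV2, and 2 members in all (17.8% of all genes). mt-Nd5 then changed by -0.67 (adjusted p = 0.221), beside 0.32 for the median of all genes. With any 1 of the 3 null clones left out, 3 members were called, mt-Nd5 and mt-Cytb each time.

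In control clones the same step gave 7 called members, where 33.4% of all genes were called (18.8% higher and 14.6% lower). Besides the 2 rRNAs, mt-Nd2 (-0.46, limma adjusted p = 0.0393) and mt-Nd5 (-0.40, adjusted p = 0.0202) fell, as did mt-Tc and mt-Ty, while mt-Ts1 rose. mt-Nd5 had 50.7, 48.4 and 58.6 rescaled TPM in D7, D3 and E8 OPCs and 37.8, 35.3 and 46.3 at DIV2. The direction for control mRNAs rested on the scaling. On the deposited values 12 of 12 were called higher at DIV2, with a median change of 2.60 beside 1.96 for all genes (83.6% of all genes called). Scaled to nuclear coding TPM, 6 were called higher and 0 lower, with 0.66 beside 0.74 (52% of all genes called). The medians of all genes include low genes, whose changes the added 1 shrinks by an amount that depends on the scale. The deposited gap is therefore no measure of an excess of the mRNAs. After quantile normalization 4 were called higher and 2 lower (33.4% of all genes called). mt-Nd5 was 2.19 higher on the deposited scale and 0.27 higher on the coding scale.

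The 12 mRNAs had a less positive change in null than in control clones between OPC and DIV2. The differences between genotypes in that change were negative for 12 of 12 (median -0.73 rescaled), and for 10 of 12 after quantile normalization. None passed the threshold after rescaling, where limma called 0.279% of all genes. At an unadjusted p under 0.05 there were 9 members, of them 5 mRNAs, among which mt-Nd5 had -0.67 (adjusted p = 0.104) and mt-Cytb -0.89 (adjusted p = 0.146). The OPC libraries enter both this test and the genotype comparison at the OPC stage.

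From DIV2 to DIV4 limma called no member in control clones (4 at an unadjusted p under 0.05, 0.225% of all genes called) and none in null clones (7 at an unadjusted p under 0.05, 1.68% of all genes called). In null clones 9 of the 12 mRNAs did not overlap between the stages, and 19 of the 36 members, beside 37.9% of all genes. mt-Co1 went from 6648 ± 577 to 4234 ± 165 rescaled TPM there (SD, n = 3), a difference of -0.65 (adjusted p = 0.403). For the difference between genotypes in this step limma called 0 members (2 at an unadjusted p under 0.05), with 0.0233% of all genes called.

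The 22 tRNAs were dominated by those on the minus strand, the strand that carries 8 of them. These 8 held 93.2% to 98.9% of tRNA TPM in the 18 libraries. Without mt-Ts1 the minus-strand sum was 104.8 to 2690 deposited TPM, beside 4.11 to 271.3 for the plus-strand tRNAs. The strand setting used for quantification is not given in the sources used here. Reads of a tRNA and reads of the opposite strand at the same place therefore cannot be told apart for any of the 22. The 5 highest means were 4982 TPM for mt-Ts1, 657 for mt-Tp, 324 for mt-Tc, 202 for mt-Tn and 139 for mt-Ty. mt-Tn, mt-Tc and mt-Ty lie next to each other between mt-Nd2 and mt-Co1. mt-Tp lies downstream of mt-Cytb, and mt-Ts1 faces the 3′ end of mt-Co1, as the sequences above show.

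mt-Ts1 abuts mt-Co1, the most abundant mRNA, on the opposite strand. The ratio of mt-Ts1 to mt-Co1 TPM was 0.274 to 1.09 over the 18 libraries. The kit keeps strand, but the strand setting used for quantification is not given in the sources used here, so reads of mt-Ts1 and reads that run across the end of mt-Co1 cannot be told apart.

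Deposited TPM of mt-Ts1 at the OPC stage was 452 for control clone D7, 1417 for D3 and 61.6 for E8, and 5664 for null clone 3F, 4110 for D6 and 7417 for 7F. The DIV2 level was 7599 ± 2112 for control clones and 8251 ± 674 for null clones. The DIV4 level was 4562 ± 1725 for control clones and 3104 ± 1148 for null clones (SD, n = 3). After rescaling the genotypes overlapped at the OPC stage, with 1520, 4541 and 456 in control and 4019, 5808 and 7297 in null (difference 1.92, SE 0.60, limma adjusted p = 0.0554). From OPC to DIV2 mt-Ts1 rose by 1.74 in control clones (SE 0.60, adjusted p = 0.0378). That rise was not called with the clone as a block (adjusted p = 0.0629), and without control clone E8 it was 0.72 (adjusted p = 0.373).

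mt-Tp, the proline tRNA, was the one member called higher at DIV2 than in OPCs in null clones. It had 306, 290 and 350 rescaled TPM in 3F, D6 and 7F OPCs and 785, 1029 and 758 at DIV2. The stages did not overlap, and the change was 1.43 (SE 0.44, limma adjusted p = 0.0256). In control clones it had 350, 732 and 123 in D7, D3 and E8 OPCs and 626, 517 and 677 at DIV2 (0.93, adjusted p = 0.118). Leaving out any 1 null clone ended the call in null clones.

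mt-Ty fell in control clones from 245, 258 and 205 rescaled TPM in D7, D3 and E8 OPCs to 114, 58.9 and 101 at DIV2 (-1.41, SE 0.38, limma adjusted p = 0.0111). On the deposited scale the same step gave 1.26 (adjusted p = 0.0168), beside 1.96 for the median of all genes. mt-Ty shares 10.8% of its words with transcripts of nuclear genes, the most with Cep295, and is uncertain.

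The plus-strand tRNAs were near the limit of detection. Between 1 and 16 of the 22 tRNAs were listed at 0 in a library, and 16 were in control E8 OPCs. The lowest tRNA value above 0 was 3.08 to 10.02 deposited TPM, depending on the library. mt-Ts2 was listed at 0 in each control OPC library and at 15.1 TPM for null clone 3F, 8.22 for D6 and 18.9 for 7F, and it was called higher (limma adjusted p = 0.0286). After rescaling these null values were 10.7, 11.6 and 18.6. The lowest rescaled tRNA values above 0 in control D7, D3 and E8 OPCs were 17.5, 11.8 and 30.4. A listing at 0 there therefore does not separate absence of mt-Ts2 from a level like that of the null clones. mt-Tt fell in null clones from 61.6, 6.73 and 38.7 deposited TPM in OPCs to 0, 5.21 and 0 at DIV2 (adjusted p = 0.0346 after rescaling). Values this low rest on few fragments, and leaving out null clone 3F, D6 or 7F, or control clone E8, ended the call of mt-Ts2.

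Nuclear genes that make and process these RNAs were examined on the same scale. Of 27 tested genes for mitochondrial RNA processing and stability, 7 were called at the OPC stage after rescaling (6 higher and 1 lower, list median 0.13). Of 5 genes for transcription and the nucleoid, 10 for mitochondrial DNA replication and 24 for nuclear-encoded subunits of the chain, 0 were called. Their list medians were 0.10, 0.13 and 0.17, and 1, 3 and 4 of them had an unadjusted limma p under 0.05. Of 4 regulators of mitochondrial gene expression, 1 was called lower. The share of all genes called was 10.7%.

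The 7 processing genes are named after their values were seen. Slirp, the partner of LRPPRC, was 1.36 higher (SE 0.21, limma adjusted p = 0.00145), and Ptcd3, a protein of the mitochondrial ribosome, was 0.79 higher (adjusted p = 0.00298). Pnpt1 (polynucleotide phosphorylase), Mtpap (the mitochondrial poly(A) polymerase), Trnt1 (which adds CCA ends to tRNAs) and Trmt5 (a tRNA methyltransferase) were the others higher, by 0.47 to 1.12. Trmu, which thiolates mitochondrial tRNAs, was lower by 0.58 (adjusted p = 0.0191), and it was higher on the deposited scale, where 27 of 27 were called higher with a median of 1.72 beside 1.50 for all genes. The regulator called lower was Esrra, an orphan nuclear receptor (-0.67, adjusted p = 0.0191), and on the deposited scale 4 of the 4 regulators were called higher.

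Polrmt (-0.35, SE 0.20, limma adjusted p = 0.282), Tfam (-0.14, SE 0.18, adjusted p = 0.660) and Lrpprc (0.21, SE 0.13, adjusted p = 0.305) did not pass the test at the OPC stage after rescaling. On the deposited scale they were called higher, by 1.14, 1.74 and 1.94. Nor did they pass it at DIV2 or DIV4. Tfam fell by 0.55 from OPC to DIV2 in control clones (adjusted p = 0.0281), and in null clones its change was -0.40 (adjusted p = 0.120).

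At DIV2, 0 of the listed genes were called between genotypes. At DIV4 1 was, Cox7c, a nuclear-encoded subunit of complex IV (-1.12, SE 0.24, limma adjusted p = 0.0182; 24 subunits tested, list median -0.09). Cox7c shares 24.5% of its words with other genes and is uncertain, and its difference on the deposited scale was -1.31 (adjusted p = 0.0907). The 3 mitochondrially encoded complex IV mRNAs at that stage, mt-Co1, mt-Co2 and mt-Co3, were not called.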

How the data were processed

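The values are TPM per Ensembl transcript as deposited by the authors (93666 transcripts, each column summing to 1000000). The submitters' processing notes name STAR, Picard and mm10 without roles or versions, and the quantifier, annotation and strand setting are not given in the sources used here. TPM keeps no depth, so no counting error can be given and precision rests on 3 clones per group. Transcripts were summed by gene name to 38046 genes after 25 names turned into dates were restored through GENCODE M21 (GRCm38), which holds 96.5% of the transcript identifiers and supplied coordinates and sequences. Its coordinates are those of GRCm38, the assembly that mm10 names.

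The 12894 genes that averaged 1 TPM or more were tested with limma 3.58.1 (R 4.3.3) on log2(rescaled TPM + 1), which understates changes of low genes. The model held the 6 group means over the 18 libraries, with eBayes and a mean trend. Benjamini-Hochberg adjustment ran over all genes within each of 9 comparisons, and called means an adjusted p under 0.05. Rescaled values assume that most genes do not change. Python 3.11.15 with pandas 2.3.3 and matplotlib 3.10.9 did the rest.

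Members and gene lists were chosen with earlier results of these data known. Every mt-mRNA and mt-rRNA and the 5 highest tRNAs are given by level. Changes are given for the called member with the smallest adjusted p per comparison, class and direction, for Polrmt, Tfam and Lrpprc, and for the called genes of the lists at DIV2 and DIV4. Further members with tests, and the listed genes at the OPC stage, were chosen after their values were seen.

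The clone names pair libraries within a genotype, because the same line was sampled at each stage. Deviations from group means correlated by 0.118 on average between libraries of the same clone (-0.0161 to 0.414, 18 pairs) and by -0.0589 between different clones (36 pairs). Because the deviations of the clones in a group cancel out, the average between different clones largely follows from the other and is no separate comparison.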

Additional observations from a re-analysis of the deposited data

How the results depend on the processing

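Every comparison was repeated with deposited TPM, quantile normalization, scaling to nuclear coding TPM, no filter or a filter at a mean of 5 TPM, a pseudocount of 0.1, no mean trend, only the groups compared, the clone as a replicate block and each clone left out. Leaving out the null D6 OPC library was added after its values were seen. Of the alternative counts of called members, 93 stayed within 1.5 times the main count and 33 did not. Counts that stayed at 0 are among the 93, and most comparisons had a main count of 0. For null against control OPCs (10 members called) the count was 30 with deposited TPM, 4 with quantile normalization, 17 with coding scaling, 6 without a filter, 1 with only the groups compared and 4 to 16 with a clone left out. At DIV4 (0 called) it was 1 with a pseudocount of 0.1, 1 with only the groups compared, 1 (mt-Nd5) with the replicate block, and 0 to 3 with a clone left out, with 2 without control D7 and 3 without control D3. For control DIV2 against OPC (7 called) it was 23 with deposited TPM, 11 with coding scaling, 3 without a filter, 2 with only the groups compared and 5 to 11 with a clone left out, 11 being without D3. There mt-Nd5 (-0.40) became 2.19 with deposited TPM and 0.27 with coding scaling, and mt-Ty (-1.41) became 1.26 with deposited TPM. For null DIV2 against OPC (10 called) it was 2 with deposited TPM, 6 with quantile normalization, 4 with coding scaling, 5 without a filter, 6 without the null D6 OPC library and 3 with any null clone left out. For null DIV4 against DIV2 (0 called) it was 6 with only the groups compared. For the difference between genotypes in the step from OPC to DIV2 (0 called) it was 22 with deposited TPM, 6 with coding scaling, 1 (mt-Rnr2) with no mean trend, 2 (both rRNAs) without the null D6 OPC library and 0 to 4 with a clone left out, with 2 without null D6 and 4 without control D3. The replicate block moved no other count of called members by more than 1.5 times. Deposited TPM differs by construction in its scaling, and no filter in the number of genes tested; the cause of the other changes was not tested. Depth is unknown, and most plus-strand tRNAs were too low for a firm statement.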

Other observations

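A further gene, Gm20594, shares 42 of its 31-base words with mt-Rnr2 and was singled out after its values were seen. It had 11.2, 11.7 and 15.3 TPM for control clones D7, D3 and E8 at the OPC stage and 6.51 for null D6 OPCs, and at most 1.23 in any other library. These are the same 4 libraries with the highest mt-Rnr1 TPM, 8982 to 19670. They are not those with the highest mt-Rnr2 TPM, the gene that shares the words. mt-Rnr2 was highest in control D3 (22215) and control E8 (15480) at DIV4, where Gm20594 had 0.738 and 0.512 TPM.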
